A study of Musa acuminata AAA Group with 4 samples.

Results

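Transcript levels of 3 sulfate transporter genes of banana were followed in 4 RNA sequencing libraries from plants grown with low or normal nitrogen. The genes were taken as a fixed list of gene IDs, 3 of the 31873 genes seen in any library: Ma03_g21470, described as a probable sulfate transporter 3.5, Ma01_g20480, described as sulfate transporter 3.1-like, and Ma01_g05840, described as sulfate transporter 2.1. They were selected on their FPKM values and expected counts in these 4 libraries, so their levels and changes are a description, with no test. All 3 genes were detected in all 4 libraries. The names are the best database match that the authors deposited beside each ID, and the match of an ID to a transporter of another plant was not tested here.

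All plants were cv. Cavendish (Musa acuminata, AAA Group), the cultivar group of the common dessert banana, a triploid that is propagated as clones. They were held in clean sand at 28 to 35 °C and sampled after 60 days. The groups were low-N leaf and normal-N leaf, and low-N root and normal-N root. Low-N plants received a nutrient solution low in nitrogen and normal-N plants a complete Hoagland solution. The samples called leaf were the whole aboveground part, pseudostem as well as leaf blade according to the design text, and the samples called root were the whole underground part. Each group had 1 library, so no difference below has a replicate check, no test was run, and the intervals given cover counting error only. The sources used here do not say how many plants went into a library.

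Plants take up sulfur as sulfate through proton-coupled carriers of the SULTR family. In Arabidopsis, group 1 holds high-affinity carriers of the root surface and the phloem, and SULTR2;1 is a low-affinity carrier of vascular tissue that acts in moving sulfate toward the shoot. Group 3 is the most varied: Arabidopsis SULTR3;5 acts together with SULTR2;1 in transfer from root to shoot, and SULTR3;1 sits in the chloroplast envelope. Sulfate is activated by ATP, reduced in plastids to sulfite and then sulfide, and built into cysteine, a step that needs a carbon and nitrogen skeleton made from serine. Sulfur and nitrogen assimilation therefore meet in the synthesis of amino acids.

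The libraries held 4144048 to 4408992 expected counts on genes. The tissue labels were checked with genes fixed as markers among those the authors had described. The 31 leaf markers (chlorophyll-binding, photosystem and small RuBisCO subunit genes) summed to 22488 FPKM in low-N leaf and 54865 FPKM in normal-N leaf, and to 171 FPKM in low-N root and 309 FPKM in normal-N root. FPKM divides a gene's fragments by its length and by the library's size, a scale on which levels of different genes can be set side by side. In low-N root 9 of these markers were listed at 0, and in normal-N root 11. The 9 markers of root surface and endodermis (Casparian strip and dirigent genes) summed to 31.7 FPKM in low-N leaf and 27.4 FPKM in normal-N leaf, against 244 FPKM in low-N root and 584 FPKM in normal-N root.

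**Figure D1:**
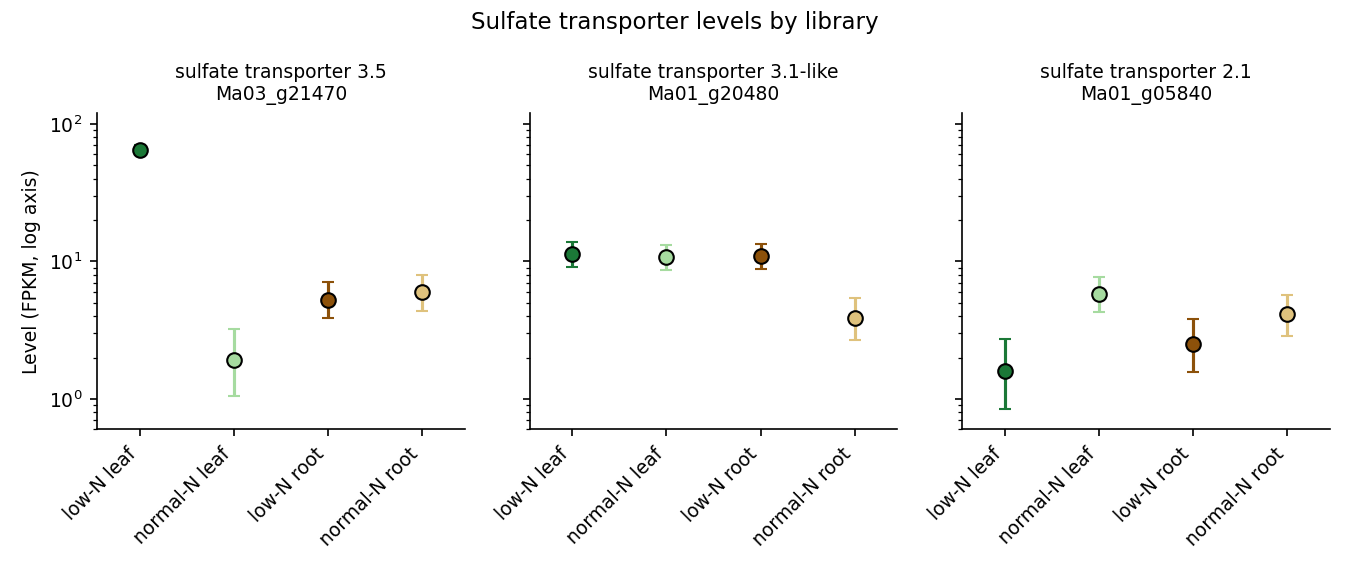
Level of each of the 3 sulfate transporter genes in each library, in FPKM on a log axis, with exact 95% Poisson intervals that cover counting error only. Sulfate transporter 3.5 stands at 64.6 FPKM in low-N leaf and between 1.93 and 5.98 FPKM in the other libraries, sulfate transporter 3.1-like is lowest in normal-N root, and sulfate transporter 2.1 is lower in both low-N libraries than in the normal-N library of the same tissue.

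Sulfate transporter 3.5 (Ma03_g21470) was at 64.6 FPKM in low-N leaf (exact 95% Poisson interval 58.9 to 70.7, 471 counts) and at 1.93 FPKM in normal-N leaf (1.06 to 3.24, 14 counts). In the roots it was at 5.28 FPKM in low-N root (3.85 to 7.07, 45 counts) and 5.98 FPKM in normal-N root (4.38 to 7.98, 46 counts). The low-N leaf library was thus the 1 high library of the 4, normal-N leaf was the lowest, and the root libraries overlapped in their intervals. Among the genes detected in low-N leaf, 90.6% had a lower level than this gene. In normal-N leaf the share was 24.6%.

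Sulfate transporter 3.1-like (Ma01_g20480) was at 11.3 FPKM in low-N leaf (9.14 to 13.9, 92.85 counts) and 10.7 FPKM in normal-N leaf (8.64 to 13.2, 88.86 counts). It was at 10.95 FPKM in low-N root (8.87 to 13.4, 96.01 counts) and 3.88 FPKM in normal-N root (2.69 to 5.42, 34 counts). The first 3 of these libraries did not differ beyond their counting intervals, and normal-N root lay below all of them. The estimated counts of this gene were whole numbers, within 0.005 counts, in 1 of 4 libraries. A part of its counts was therefore an estimate, of a size not given in the files, whereas the counts of the other two genes were whole in 4 of 4 libraries.

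Sulfate transporter 2.1 (Ma01_g05840) had the lowest level of the 3 genes in both low-N libraries. It was at 1.59 FPKM in low-N leaf (0.85 to 2.72, 13 counts) and 5.83 FPKM in normal-N leaf (4.30 to 7.73, 48 counts). It was at 2.52 FPKM in low-N root (1.58 to 3.82, 22 counts) and 4.13 FPKM in normal-N root (2.89 to 5.72, 36 counts). Ordered by level the libraries ran from normal-N leaf through normal-N root and low-N root to low-N leaf, and each neighbour in that order overlapped the next in its counting interval.

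In leaf the question was how the level of each carrier differed after growth on low nitrogen, and the 3 genes differed in direction. Sulfate transporter 3.5 was higher in low-N leaf, sulfate transporter 2.1 was lower, and sulfate transporter 3.1-like was about level. Changes are given as the ratio of counts scaled by library totals, with an exact 95% Clopper-Pearson interval, and as the log2 change of FPKM + 1, which understates the change of weak genes. The size rule used below calls a gene higher or lower where this log2 change reaches 1 or -1 and at least 2 FPKM are seen in the library with more. By this rule 11.7% of the 21715 genes at the filter were higher in low-N leaf and 6.70% were lower (2537 and 1454 genes, against 1970 and 2268 after median-ratio scaling and 2149 and 1878 after upper-quartile scaling). Since the 3 genes were chosen by these values, nothing is read from how many of them passed.

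Sulfate transporter 3.5 was 33.8-fold higher in low-N leaf than in normal-N leaf (20.0 to 62.3), a log2 change of 4.49. That was the third most positive change (rank 3) of the 21715 genes. The low count in normal-N leaf sets the width of the interval. Its log2 ratio was 5.07 in the authors' deposited table.

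Sulfate transporter 2.1 was 3.67-fold lower in low-N leaf than in normal-N leaf (1.96 to 7.39), a log2 change of -1.40, and its log2 ratio in the authors' deposited table was -1.87. Sulfate transporter 3.1-like had a ratio of 1.05 (0.78 to 1.42) and a log2 change of 0.07 in leaf, against a median of 0.12 over all genes at the filter. It was not among the genes of the authors' deposited table for leaf.

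The described markers were counted between the same leaf libraries. Of the 31 leaf markers, 30 passed the filter and 30 were lower by size in low-N leaf, with a median log2 change of -1.58, and none of the 31 was at 0 in either leaf library. Over all genes at the filter 11.7% were higher and 6.70% lower, with a median of 0.12. A gene had to pass the authors' change filter in a tissue to be described and so to serve as a marker. The marker counts are therefore not independent of how the genes came to be described. The filter kept changes of both directions, and its part in the marker counts was not tested. The 19 markers of vascular tissue and secondary wall (secondary-wall cellulose synthase, fasciclin-like, laccase and similar genes) summed to 20.4 FPKM in low-N leaf and 38.7 FPKM in normal-N leaf, with 5 and 1 of them at 0. Among the markers of root surface and endodermis, 2 were higher and 1 lower by size. The part of these marker differences in the levels of the transporters was not tested. In tissue samples, fewer cells of a type and less RNA per cell cannot be told apart.

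In root the ranking of the genes by change was another one. Sulfate transporter 3.1-like was 2.81-fold higher in low-N root than in normal-N root (1.88 to 4.29), a log2 change of 1.29, and its log2 ratio in the authors' deposited table for root was 1.50. By the size rule 4.67% of 24476 genes were higher in low-N root and 6.90% were lower. Sulfate transporter 3.5 had a ratio of 0.97 (0.63 to 1.50) and a log2 change of -0.15. Sulfate transporter 2.1 had a ratio of 0.61 (0.34 to 1.06) and a log2 change of -0.54, so its value was lower in low-N root but its interval held equality. Neither of these was past the size rule or in the authors' deposited table for root.

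The described markers were also counted in root. The vascular and secondary wall list summed to 1162 FPKM in low-N root and 1234 FPKM in normal-N root, with 8 of 19 genes higher and 11 lower by size and none at 0. The root surface and endodermis list had 2 of 9 genes higher and 7 lower, with none at 0. Over all genes at the filter 4.67% were higher and 6.90% lower. Here too each marker had passed the authors' change filter in at least 1 tissue, so these counts are not independent of that choice. Its part in them was not tested. The part of the markers in the values of the transporters was not tested.

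**Figure D2:**
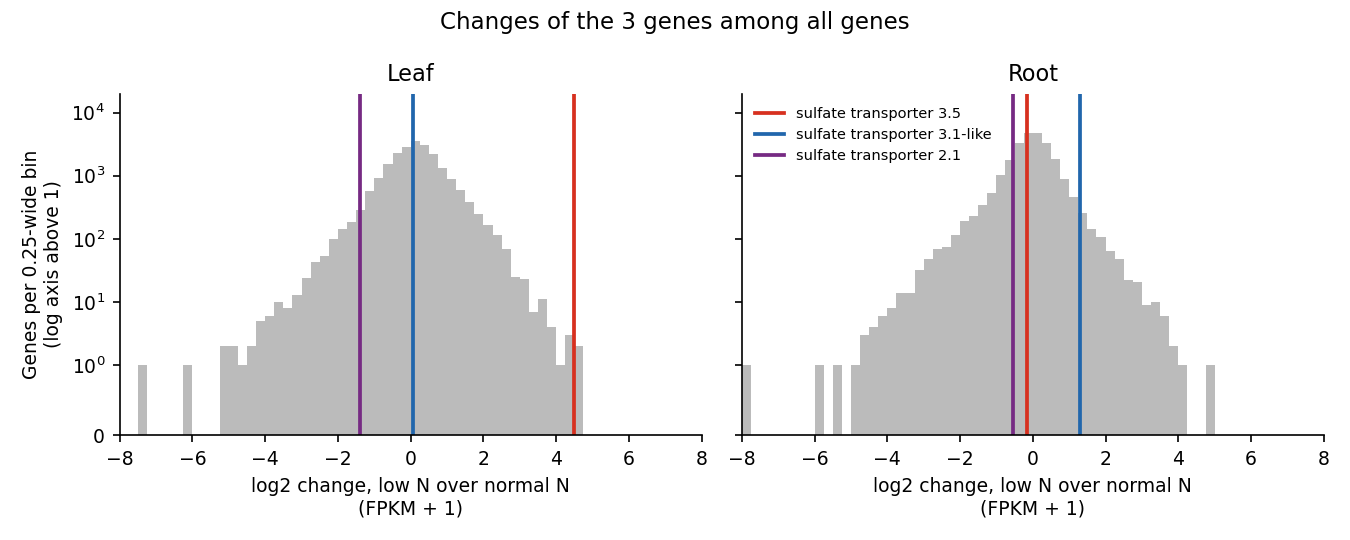
Distribution of log2 changes of FPKM + 1, low N over normal N, over all genes at the filter in leaf (21715 genes) and in root (24476 genes), in bins 0.25 wide, with values beyond 8 placed in the end bins. Lines mark the 3 sulfate transporters: in leaf sulfate transporter 3.5 lies at the upper end at 4.49 and 2.1 at -1.40, and in root sulfate transporter 3.1-like lies at 1.29 with the other lines at -0.15 and -0.54.

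The ratio of low N to normal N was also compared between the tissues. For sulfate transporter 3.5 the low-N to normal-N ratio in leaf was 34.2 times that in root (conditional exact 95% interval 16.99 to 72.9), a difference of 4.64 between the log2 changes. For sulfate transporter 3.1-like the leaf ratio was 0.37 times the root ratio (0.22 to 0.62), a difference of -1.22. For sulfate transporter 2.1 it was 0.45 times (0.18 to 1.08), a difference of -0.86 whose interval held equality. These intervals were computed on rounded counts and cover counting error only.

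Leaf and root were also set side by side under each solution. Sulfate transporter 3.5 was 11.1-fold higher in low-N leaf than in low-N root (8.19 to 15.5), while in plants on the complete solution it was 3.11-fold lower in leaf than in root (1.68 to 6.13). Between leaf and root such differences were common: under low N 22.8% of 25802 genes were higher in leaf by the size rule and 37.1% lower, and under normal N 20.1% of 25724 were higher and 42.2% lower (5179 and 10863 genes, against 6977 and 8539 after median-ratio scaling). Over all genes at the filter, the median log2 change of leaf over root was -0.35 under low N and -0.63 under normal N. After median-ratio scaling these medians were -0.12 and -0.14. Sulfate transporter 3.1-like had a leaf to root ratio of 1.03 (0.77 to 1.39) under low N and 2.76 (1.84 to 4.23) under normal N. Sulfate transporter 2.1 had ratios of 0.63 (0.29 to 1.30) and 1.41 (0.89 to 2.23), and both intervals held equality. These leaf to root ratios are built from the same 4 libraries as the low-nitrogen changes and add no independent measurement.

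The listed length of sulfate transporter 3.5 also differed between libraries, which bears on its FPKM. The gene has 2 annotated transcripts, and the length that the authors' lists give for it was 1743 bases in low-N leaf and 1725 bases in normal-N leaf, and 1905 bases in low-N root and 1725 bases in normal-N root. Of genes with several transcripts and at least 10 counts in both libraries, a listed length that differed by at least 10% was found in 1.83% of 4867 genes between the leaf libraries and in 1.40% of 5493 genes between the root libraries. If the listed length is an average over the transcripts weighted by their estimated share, and the shortest and longest values are those of the transcripts themselves, then the longer transcript carried 9.84% of the estimate in low-N leaf, all of it in low-N root and none in the normal-N libraries. The root estimates rest on 45 and 46 counts, and neither condition was tested here. The other two genes have 1 annotated transcript each, and their listed lengths of 1959 and 1950 bases were the same in all libraries.

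The 3 genes summed to 77.5 FPKM in low-N leaf and 18.5 FPKM in normal-N leaf, and to 18.8 FPKM in low-N root and 14.0 FPKM in normal-N root. In low-N leaf sulfate transporter 3.5 made up 83.4% of that sum, against 10.4% in normal-N leaf, where 3.1-like made up 58.1%. In low-N root 3.1-like made up 58.4% and in normal-N root 27.7%.

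**Figure D3:**
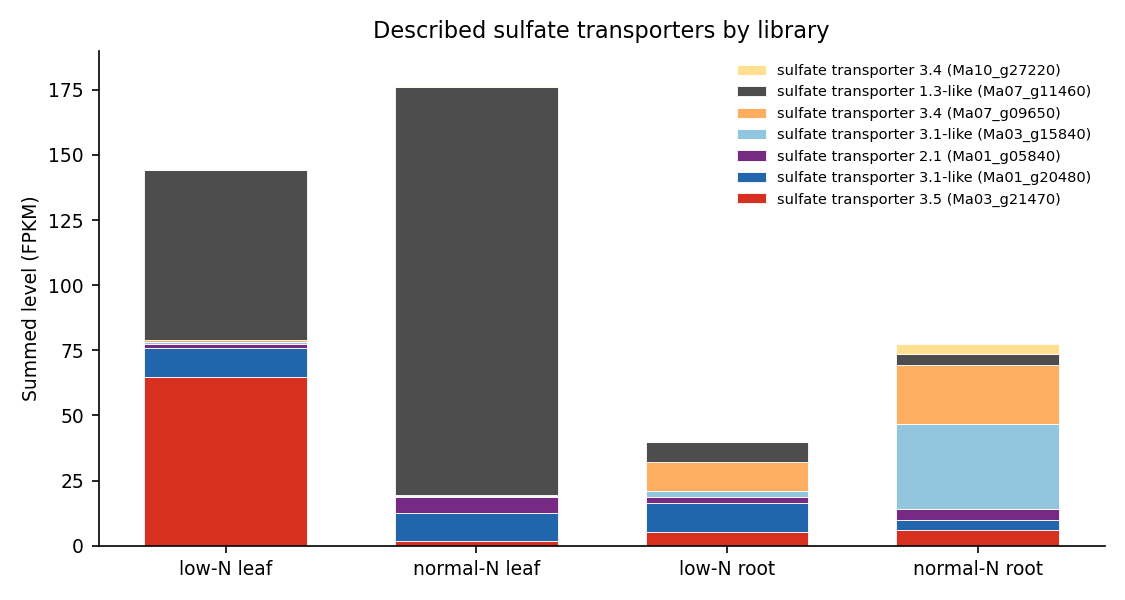
Summed level in FPKM of the 7 genes described as sulfate transporters, by library, with 1 colour per gene. The sums are 144 FPKM in low-N leaf, 176 FPKM in normal-N leaf, 39.95 FPKM in low-N root and 77.4 FPKM in normal-N root, and the largest block is sulfate transporter 1.3-like in normal-N leaf.

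The authors' filtered tables describe 4 other genes as sulfate transporters, and these put the 3 in proportion. Only genes that passed the authors' filter on change in a tissue have a deposited description, so this is not the whole family and its direction is not independent evidence. The 7 genes together were at 144 FPKM in low-N leaf and 176 FPKM in normal-N leaf. Sulfate transporter 1.3-like (Ma07_g11460), of the high-affinity group, made up 45.3% of that sum in low-N leaf and 88.7% in normal-N leaf. Sulfate transporter 3.5 made up 44.8% in low-N leaf and 1.09% in normal-N leaf. In root the 7 genes were at 39.95 FPKM under low N and 77.4 FPKM under normal N.

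Sulfate transporter 1.3-like was at 65.4 FPKM in low-N leaf and 156 FPKM in normal-N leaf, 2.40-fold lower (2.17 to 2.65). In root it was at 7.67 FPKM under low N and 4.29 FPKM under normal N, a ratio of 1.78 (1.18 to 2.73) that was not past the size rule. A second gene described as sulfate transporter 3.1-like (Ma03_g15840) was at 0.72 FPKM in both leaf libraries. In root it was at 2.14 FPKM under low N and 32.6 FPKM under normal N, 15.3-fold lower (9.60 to 25.7).

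The pair of genes with the same description, 3.1-like, had opposite orders in root: Ma01_g20480 was at 10.95 FPKM under low N and 3.88 FPKM under normal N, while Ma03_g15840 was lower under low N. Both are described from a match, and how their fragments were divided is not given in the sources used here. The remaining genes are described as probable sulfate transporter 3.4. They and molybdate transporter 2 fell outside the rule for naming and were added after their values were seen, to complete the set. In rice and Arabidopsis the carrier of that number is known for distributing phosphate. Ma10_g27220 was at 0.23 FPKM in low-N root (2 counts) and 3.86 FPKM in normal-N root (34 counts), 17.1-fold lower (4.37 to 147). Ma07_g09650 was at 11.2 FPKM in low-N root and 22.7 FPKM in normal-N root, with a log2 change of -0.96. Both genes were below 1 FPKM in the leaf libraries, between 0 and 0.60 FPKM.

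The molybdate transporters, which belong to the same protein family and carry the metal that nitrate reductase needs, were searched with them. Their 3 described genes were lower by size in low-N root, beside 6.90% of all genes. All 3 had passed the authors' change filter in root, so these calls are not independent of how they came to be described. Molybdate transporter 2 (Ma06_g03340), known in Arabidopsis as a vacuolar carrier, was at 28.2 FPKM in low-N root and 116 FPKM in normal-N root, 4.13-fold lower (3.50 to 4.90), but at 113 FPKM in low-N leaf and 81.4 FPKM in normal-N leaf. Molybdate transporter 1-like (Ma03_g28120) was at 0.82 FPKM in low-N root and 22.4 FPKM in normal-N root, 27.3-fold lower (11.4 to 85.4). Its namesake Ma03_g14710 had 0 counts in low-N root and 8.03 FPKM in normal-N root, at least 16.3-fold lower by a floor of 3 counts in the low-N library. It was at 0.35 FPKM in low-N leaf (2 counts) and 4.07 FPKM in normal-N leaf, 11.4-fold lower (2.83 to 100.1).

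Without the 3 genes of the list, 2 of the 3 sulfate and molybdate transporter genes at the filter in leaf were lower by size and 0 higher, beside 6.70% and 11.7% of all genes, with a median log2 change of -1.25 against 0.12 over all genes. In root 5 of 7 were lower and 0 higher, beside 6.90% and 4.67% of all genes, with a median of -2.01 against -0.01. The authors' deposited tables held 2 of these 7 genes for leaf and 6 for root. A gene had to pass the authors' change filter in a tissue to be described at all. That choice favours genes with a change, so all genes are not a like comparison, here and in each list below. Nothing particular to a list is read from these counts and medians. The filter kept changes of both directions, and why a list leaned to a direction was not tested.

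**Figure D4:**
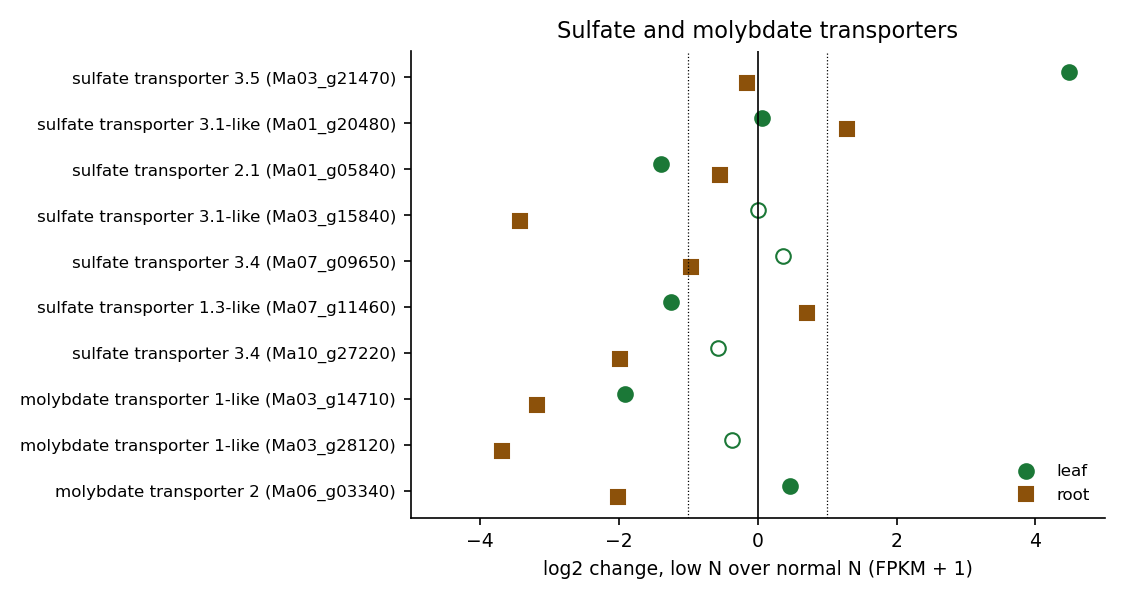
Log2 change of FPKM + 1, low N over normal N, of the 3 listed genes (top) and of the other described sulfate and molybdate transporters, in leaf (circles) and root (squares). Open symbols are genes under 2 FPKM in both libraries, and dotted lines mark a change of 1: sulfate transporter 3.5 in leaf and 3.1-like (Ma01_g20480) in root are the symbols right of the upper dotted line.

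The steps that follow uptake were searched in the same descriptions. Sulfate activation and reduction was represented by 2 genes, and both were lower by size in low-N leaf, beside 6.70% of all genes, with a median log2 change of -1.52. Both are described because they passed the authors' filter in leaf (2 of 2 in that table). The 5'-adenylylsulfate reductase 3 gene (Ma02_g15730), whose enzyme reduces activated sulfate to sulfite, was at 88.9 FPKM in low-N leaf and 355 FPKM in normal-N leaf, 4.00-fold lower (3.64 to 4.41). Sulfite reductase (Ma01_g16340), which makes sulfide, was at 52.0 FPKM in low-N leaf and 109 FPKM in normal-N leaf, 2.10-fold lower (1.87 to 2.35). Its log2 change of -1.05 lay near the limit of the rule and was -0.95 after scaling by total FPKM. In root neither was past the size rule, at 11.9 and 11.8 FPKM under low N and at 20.6 and 13.75 FPKM under normal N, in the same order of genes.

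Of the 5 described genes of cysteine and methionine synthesis, 1 of 4 at the filter was higher by size in low-N leaf and 0 lower, beside 11.7% and 6.70% of all genes, with a median log2 change of 0.12. In root 3 of 5 were lower and 0 higher, beside 6.90% and 4.67% of all genes, with a median of -1.53, and the same 3 of 5 had passed the authors' filter in root. Serine acetyltransferase 1 (Ma02_g11180), whose enzyme makes the carbon and nitrogen skeleton of cysteine, was at 47.15 FPKM in low-N leaf and 15.1 FPKM in normal-N leaf, 3.14-fold higher (2.32 to 4.31). A cysteine synthase gene (Ma04_g27940), for the step that adds sulfide to that skeleton, was at 24.0 FPKM in low-N root and 143 FPKM in normal-N root, 5.99-fold lower (4.86 to 7.46). In low-N leaf it was 1.41-fold lower (1.26 to 1.58), not past the rule. Cysteine synthase-like (Ma05_g17890) was 2.06-fold lower in low-N leaf (1.55 to 2.76). Its log2 change of -0.98 lay near the limit and was -1.19 after median-ratio scaling. That gene fell outside the rule for naming and was added after its values were seen. The second serine acetyltransferase 1 gene (Ma08_g28170) was at 2.69 FPKM in low-N root and 9.69 FPKM in normal-N root. In leaf its ratio was 2.01 (0.63 to 7.49), an interval that held equality. S-adenosylmethionine synthase 5-like (Ma07_g02100), which makes the methyl donor from methionine, was at 3.35 FPKM in low-N root and 21.0 FPKM in normal-N root, 6.13-fold lower (3.71 to 10.7).

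The search for regulators of sulfur deficiency found 3 genes, all described as ETHYLENE INSENSITIVE 3-like 1, a name used for factors of ethylene signalling rather than for the related regulator of sulfur deficiency. All 3 were higher by size in low-N leaf, beside 11.7% of all genes, and none was past the rule in root. All 3 had been picked by the authors' filter in leaf and 0 in root, so their calls in leaf are not independent of how they came to be described. That filter kept changes of both directions, and why all 3 were higher was not tested. They were at 153, 103 and 18.5 FPKM in low-N leaf and at 62.6, 51.1 and 7.96 FPKM in normal-N leaf (Ma10_g12970, Ma06_g33860 and Ma09_g16910). The second of them stood at a log2 change of 1.00, on the limit of the rule, and after median-ratio scaling it was at 0.79 and the third gene at 0.94.

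Sulfotransferases, which attach sulfate groups to small molecules, went both ways. A flavonol sulfotransferase-like gene (Ma04_g14470) was at 0.24 FPKM in low-N leaf (1 count) and 14.0 FPKM in normal-N leaf (59 counts), 58.7-fold lower with an interval of 10.1 to 2358, and at 138 FPKM in low-N root and 149.5 FPKM in normal-N root. Cytosolic sulfotransferase 12-like (Ma08_g04230) was at 5.61 FPKM in low-N leaf and 1.70 FPKM in normal-N leaf, and at 108 FPKM in low-N root and 47.4 FPKM in normal-N root, 2.27-fold higher in root (1.92 to 2.68). No described gene matched the terms for glutathione synthesis and turnover. Over all 19 described genes of these lists, 5 of 14 at the filter were higher and 5 lower by size in low-N leaf (3 and 6 after median-ratio scaling), and 1 of 19 was higher and 8 lower in low-N root. Over all genes the shares were 11.7% higher and 6.70% lower in leaf and 4.67% and 6.90% in root, but every gene of the lists had passed the authors' change filter in at least 1 tissue.

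**Figure D5:**
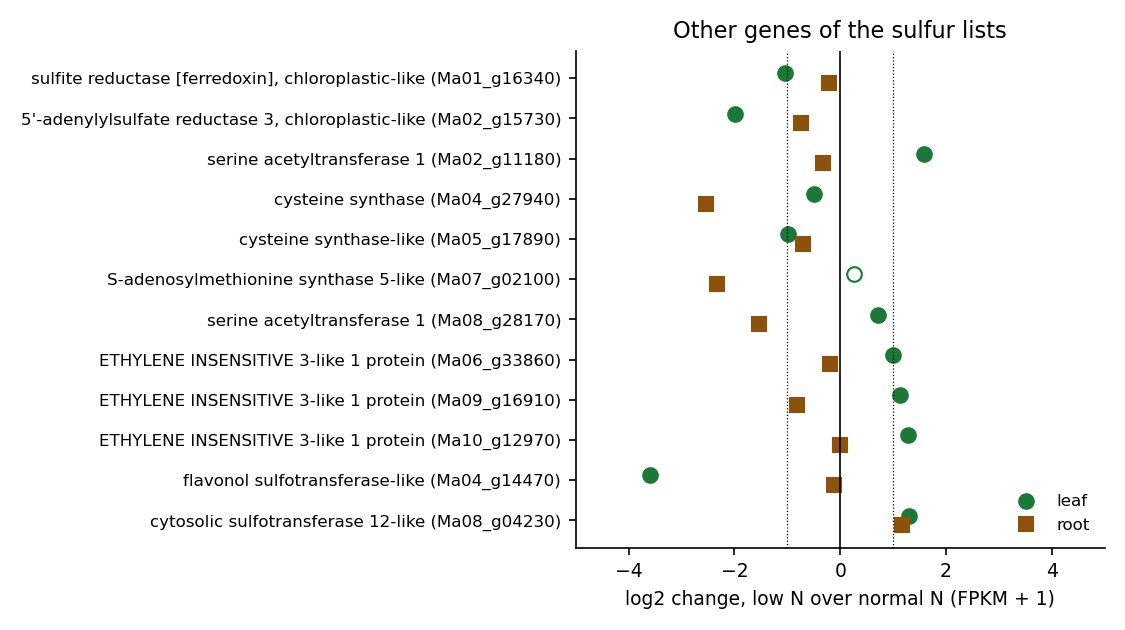
Log2 change of FPKM + 1, low N over normal N, of the described genes of sulfate reduction, cysteine and methionine synthesis, and sulfation, in leaf (circles) and root (squares). The ETHYLENE INSENSITIVE 3-like 1 genes found by the search for regulators of sulfur deficiency are also shown. Dotted lines mark a change of 1 and the open symbol is a gene under 2 FPKM in both libraries: the reductases lie left of zero in leaf, the ETHYLENE INSENSITIVE 3-like 1 genes at or right of the upper line in leaf, and cysteine synthase (Ma04_g27940) left of the lower line in root.

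The described genes with the most similar pattern over the 4 libraries were listed for each transporter by the Euclidean distance between centred log2 values of FPKM + 1, among 2294 or 2295 genes with a mean of at least 5 FPKM. With 4 libraries such likeness is a description. Nearest to sulfate transporter 3.5 was a gene described as polycystic kidney disease protein 1-like 3 (Ma03_g04190), at 32.2 FPKM in low-N leaf and 2.94 FPKM in normal-N leaf and at 3.70 FPKM in low-N root and 6.48 FPKM in normal-N root, at a distance of 1.07. The next were 4-coumarate--CoA ligase-like 10 (Ma02_g05950), an ankyrin repeat gene (Ma06_g36340) and WRKY31 genes (Ma02_g16960 and Ma10_g15390), at distances of 1.12 to 1.18.

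Neighbours of sulfate transporter 3.1-like lay at smaller distances. The nearest was a mitochondrial heat shock 22 kDa gene (Ma10_g30320), at 28.3 FPKM in low-N leaf and 28.1 FPKM in normal-N leaf and at 25.1 FPKM in low-N root and 9.55 FPKM in normal-N root, at a distance of 0.17. It was followed by the ubiquitin ligase UPL1-like (Ma04_g06280), the protein kinase HT1-like (Ma06_g27110), a lysM receptor kinase (Ma02_g11210) and the calcium-binding CML48 (Ma03_g23780), at 0.24 to 0.36.

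The neighbours of sulfate transporter 2.1 lay at distances of 0.22 to 0.27. They were a chloroplast division factor (Ma10_g11880), iron-sulfur cluster assembly protein 1-like (Ma10_g20430), glutaredoxin-C8-like (Ma01_g01050), a THO complex subunit (Ma02_g01400) and chloroplastic malate dehydrogenase (Ma07_g11330). The iron-sulfur assembly gene, for instance, was at 48.1 FPKM in low-N leaf and 106 FPKM in normal-N leaf and at 64.8 FPKM in low-N root and 95.7 FPKM in normal-N root.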

How the data were processed

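RNA was selected on its poly(A) tail and, after fragmentation, primed with random hexamers, per the labels' protocols, and no strand-marking step is stated. BWA and Bowtie appear in the submitters' processing notes. For the counting tool, genome build, annotation and test, the sources used here give nothing. Per the file headers, the authors deposited an expected count and an FPKM value per gene and library, and filtered tables of low N over normal N with log2 ratio, p-value and FDR. Their p-values compare 1 library with 1 library and were not used. A gene absent from a list was read as 0. Of the listed gene lengths, 97.0% were divisible by 3 in some library, so they were taken as coding length. The RefSeq gene table of the assembly Cavendish_Baxijiao_AAA held 0 of the 31873 gene IDs, so no coordinates or sequences are given.

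Expected counts were rounded and divided by library totals for ratios, with exact 95% intervals (scipy 1.17.1). Fold intervals and a floor of 3 counts cover counting error only. The fold code was tested on simulated data. Gene lists were search terms on the deposited BLAST descriptions of 3396 genes, and up to 3 genes per direction of each list past the size rule were named, with the 5 genes of nearest pattern for each transporter. The genes, lists and tests were chosen with earlier results of these data known. Alternatives were other pseudocounts, scalings and filters, counts in place of FPKM, the KEGG text and, added after seeing the data, 1 length per gene. No other gene had the same counts and length as a transporter, so no copies were summed. That check cannot find similar genes whose shared fragments were divided unevenly.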

Additional observations from a re-analysis of the deposited data

Results flagged for a closer look

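The following genes, out of the 3 transporters and the sulfur lists, lay on opposite sides of zero in leaf and root, with a change past the size rule in at least 1 tissue. Each tissue has 1 pair of libraries, so the differences were not tested. Among the 3 listed genes only sulfate transporter 3.5 (Ma03_g21470) was of this kind, with log2 changes of 4.49 in leaf and -0.15 in root, a difference of 4.64, and the ratio in root had an interval that held equality. Sulfate transporter 1.3-like (Ma07_g11460) had the opposite order, -1.25 in leaf and 0.71 in root, a difference of -1.96. The serine acetyltransferase 1 genes had differences of 1.90 (Ma02_g11180) and 2.26 (Ma08_g28170), and S-adenosylmethionine synthase 5-like (Ma07_g02100) had one of 2.60, with under 1 FPKM in both leaf libraries. Molybdate transporter 2 (Ma06_g03340) was at 0.46 in leaf and -2.01 in root, a difference of 2.47. The ETHYLENE INSENSITIVE 3-like 1 genes had differences of 1.19 (Ma06_g33860), 1.94 (Ma09_g16910) and 1.29 (Ma10_g12970), the last with a root change of -0.01 that turned positive by median ratios (0.05) and by total FPKM (0.08).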

How the results depend on the processing

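No paired analysis was possible because each group had 1 library. The low-nitrogen and tissue changes of the 3 genes that were past the size rule kept their direction under every alternative, but 4 of them fell under its limit with a pseudocount of 5 FPKM: 2.1 in leaf (-0.72), 3.1-like in root (0.84), and 3.1-like (0.83) and 3.5 (-0.66) for leaf over root under normal N. The last was also under it after median-ratio scaling (-0.88). The small leaf change of 3.1-like turned to -0.13 by median ratios and -0.05 by the upper quartile. With a pseudocount of 5 FPKM, sulfate transporter 3.5 had log2 changes of 3.33 in leaf and 2.76 for leaf over root under low N, and a tissue difference of 3.42. The summed level of the 3 genes in low-N leaf was 84.9 by total FPKM, and in normal-N leaf 22.6 by median ratios. In CPM, another unit, it was 139, 36.2, 37.0 and 26.4 in low-N leaf, normal-N leaf, low-N root and normal-N root. Over all genes in leaf, the median log2 change was -0.09 after median-ratio scaling and 0.12 as deposited. Sulfate transporter 3.5 lay above that median and 2.1 below it under both.

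Over all genes, a pseudocount of 5 FPKM gave 1026 higher and 593 lower genes in leaf and 341 and 680 in root, and a filter of 10 FPKM gave 1388 and 778 in leaf and 491 and 852 in root. Median-ratio scaling gave 2268 lower genes in leaf. For the sulfur lists, a pseudocount of 5 FPKM gave 2 higher and 3 lower genes in leaf, and median ratios gave 3 higher. Adding the KEGG text gave 8 higher and 8 lower in leaf and 3 higher in root, and the filter of 10 FPKM gave 5 lower in root. Both settings also change how many genes are counted, so these counts are not shares. ETHYLENE INSENSITIVE 3-like 1 (Ma06_g33860) was at 0.79 in leaf under median ratios, no longer past the rule. The cause of these shifts was not tested. Depth limits sulfate transporter 2.1 (13 to 48 counts) and the 14 counts of 3.5 in normal-N leaf.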
